A study of Mus musculus with 8 samples.

Results

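Calcium/calmodulin-dependent protein kinase II (CaMKII) was examined through 7 of the 22430 genes in the table of long-read counts: the kinase subunits Camk2a, Camk2b, Camk2d and Camk2g, the inhibitor Camk2n1 and the calmodulin genes Calm2 and Calm3. The genes were chosen by symbol, for their place in this pathway, with earlier results of these data known. Each was found once in the table by its Ensembl identifier. The 8 libraries were made from 8 males of the inbred strain C57Bl/6JRj, with 1 library per mouse. The labels call the samples whole brain, and the methods describe dissected hemispheres without a number per mouse. There were 4 young adult mice of 6 months (6m) and 4 aged mice of 24 months (24m), and the labels name no transgene or treatment. RNA was sequenced with the nanopore direct RNA protocol on a MinION, and the values used are unnormalized read counts on genes. A hemisphere mixes forebrain, cerebellum and brainstem, so fewer cells of a type and less RNA per cell cannot be told apart in any value below.

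In neurons, calcium that enters through glutamate receptors and voltage-gated channels binds calmodulin, and calcium-loaded calmodulin opens the CaMKII holoenzyme. Neighbouring subunits then phosphorylate each other at a threonine behind the catalytic domain, which keeps the kinase active after calcium has fallen, a property for which the enzyme is known in synaptic plasticity. The alpha subunit is the main form of forebrain excitatory neurons, the beta subunit binds actin, and the delta and gamma subunits are made in many tissues. Camk2n1 codes for a small protein that binds the active kinase and blocks it.

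Calm2 and Calm3 are shown first as sequence, because they code for the same protein and can be told apart in reads only through differing bases. Over 447 coding bases they were 82.6% identical, whereas their 149 residues were 100% identical. The stretch below is 30 bases of exon 3, coding bases 61 to 90, which spell most of the first calcium-binding loop, starting at its first residue. Capitals mark the 7 positions at which they differ. In GRCm39, the stretches lie at chr17:87743307-87743336 on the minus strand (Calm2) and chr7:16651598-16651627 on the minus strand (Calm3).
Calm2: gacaaggaCggGgatggGacAatAacAacA
Calm3: gacaaggaTggAgatggCacCatTacCacC

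The kinase subunits are shown at the autophosphorylated threonine, residue 287 in Camk2b, Camk2d and Camk2g and residue 286 in Camk2a. Each stretch is 27 bases of exon 11, coding bases 847 to 873, with the threonine codon in capitals. They lie at chr11:5938985-5939011 on the minus strand (Camk2b), chr3:126591378-126591404 on the plus strand (Camk2d) and chr14:20810495-20810521 on the minus strand (Camk2g).
Camk2b: cacagacaggagACTgtggaatgtctg
Camk2d: cacaggcaggagACTgtagactgcttg
Camk2g: catcgccaagagACGgtagagtgctta
Coding sequences of the subunits were between 77.2% and 80.4% identical in pairs, and their proteins between 84.1% and 90.1%. No member had another annotated transcript at least 95% identical over at least 50% of its canonical transcript.

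All 7 genes passed the filter on low counts, a mean count over 5 across the libraries. Changes between ages were tested with edgeR over the 9375 genes that passed it, and a gene was called when its Benjamini-Hochberg adjusted p (padj) was at most 0.05 and its log2FC at least 0.58 in size. Camk2a and Camk2b were called higher at 24m, and no member was called lower, so that 2 of 7 members were called against a background of 14.5% of all tested genes. In the upward direction that background was 10.3%, and in the downward direction 4.17%, from 968 and 391 genes. The scaling moved this split, to 1218 and 223 genes with library sizes alone and to 701 and 484 with limma-voom after quantile normalization. Calm3 passed the adjusted p but lay just under the fold minimum. With so few genes, the share of members called is a count and no test.

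Camk2a (ENSMUSG00000024617, chr18:61058473-61121224, plus strand) had 22.2, 16.3, 22.4 and 20.1 CPM in 6m replicates 1 to 4, and 47.3, 85.3, 85.7 and 41.4 CPM in 24m replicates 1 to 4. CPM are counts divided by the TMM-scaled library size and brought to the usual common total. All aged libraries thus lay above all young ones, although 24m replicates 2 and 3 stood well above the remaining aged libraries. These values rested on 18, 9, 18 and 16 reads at 6m and on 31, 82, 67 and 54 reads at 24m. The mean rose from 20.2 ± 2.83 to 64.9 ± 23.9 CPM (SD, n = 4 per age), a log2FC of 1.64 (SE 0.248, 95% interval 1.13 to 2.15, edgeR padj = 4.39e-05), or 3.11-fold with an interval from 2.18 to 4.43. Camk2a was the member with the highest log2FC.

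Camk2b (ENSMUSG00000057897, chr11:5915791-6016362, minus strand) had 50.5, 50.6, 44.8 and 74.1 CPM in the 6m libraries and 154, 136, 136 and 99.7 CPM in the 24m libraries. The highest young library, 6m replicate 4, remained below the lowest aged library, 24m replicate 4. The mean rose from 55.0 ± 13.01 to 131 ± 22.8 CPM (SD, n = 4 per age), a log2FC of 1.23 (SE 0.171, 95% interval 0.88 to 1.58, edgeR padj = 1.36e-05), or 2.35-fold. Camk2b overlaps Ykt6, which codes for a SNARE protein of membrane fusion, on the opposite strand. They share 1813 of the 14378 exon bases of Camk2b, or 12.6%, and the strand setting of the counting is not given in the sources used here. Ykt6 itself went from 39.4 ± 3.92 CPM in young to 52.0 ± 3.95 CPM in aged libraries (SD, n = 4 per age), with a log2FC of 0.39 (SE 0.167, edgeR padj = 0.0968). Taking away as many reads as Ykt6 had, the most that Camk2b could hold if overlapping reads were counted on both genes, left 11, 7, 6 and 23 reads at 6m and 64, 86, 65 and 62 reads at 24m. After that subtraction, which was added after the data were seen, the log2FC of Camk2b was 2.27 (SE 0.277, edgeR padj = 1.91e-06). The direction was the same after the subtraction, which removes a number of reads and does not identify the shared ones. It left few reads in the young libraries. The gamma-protocadherins Pcdhga6 and Pcdhgc5 share 2210 exon bases on the same strand. Their mean CPM were equal, 79.0 at 6m and 207 at 24m, so reads they shared were counted on both. Whether that held for Camk2b and Ykt6, on opposite strands, is not given. If the counting left out reads on both genes instead, the log2FC of 1.23 and 2.27 do not bound the change of Camk2b, so its size is not settled.

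The subunits made in many tissues were not called. Camk2d (ENSMUSG00000053819, chr3:126389945-126639982, plus strand) was covered by few reads, 9, 3, 17 and 5 at 6m and 9, 18, 11 and 23 at 24m. Its CPM were 11.1, 5.42, 21.2 and 6.28 at 6m and 13.7, 18.7, 14.1 and 17.6 at 24m. The ages overlapped because 6m replicate 3 held the highest value of all 8 libraries. The log2FC was 0.52 (SE 0.358, 95% interval -0.22 to 1.25, edgeR padj = 0.328), an interval that holds both 0 and the fold minimum at this depth. In 6m replicate 2, the 3 reads of Camk2d equalled the limit that a count of 0 would allow, which lay between 2.30 and 5.42 CPM depending on the library and covers counting error only.

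Camk2g (ENSMUSG00000021820, chr14:20784942-20844541, minus strand) had 55.4, 45.2, 61.0 and 46.5 CPM in the 6m libraries and 71.6, 64.5, 70.4 and 46.8 CPM in the 24m libraries. In all, 3 aged libraries lay above every young one, and 24m replicate 4 lay among the young libraries. The mean was 52.0 ± 7.51 CPM in young and 63.3 ± 11.5 CPM in aged libraries (SD, n = 4 per age), with a log2FC of 0.24 (SE 0.174, 95% interval -0.12 to 0.60, edgeR padj = 0.352).

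The inhibitor Camk2n1 (ENSMUSG00000046447, chr4:138181407-138187434, plus strand) had 245, 280.3, 317 and 270.0 CPM in the 6m libraries and 273, 286, 377.5 and 347 CPM in the 24m libraries. The ages overlapped, with 24m replicates 1 and 2 inside the range of the young libraries. Its log2FC was 0.21 (SE 0.113, 95% interval -0.02 to 0.44, edgeR padj = 0.191), and the upper bound of the interval lies below the fold minimum. Camk2n2, the gene of the other CaMKII inhibitor, was no member and had 204 ± 21.8 CPM in young and 249 ± 16 CPM in aged libraries (SD, n = 4 per age; log2FC 0.29, SE 0.108, edgeR padj = 0.0562). It shares 748 of its 2677 exon bases, or 27.9%, with Eef1akmt4 on the opposite strand, so its value carries the same uncertainty of strand as that of Camk2b.

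Calm2 (ENSMUSG00000036438, chr17:87740829-87754363, minus strand) had 1355, 1508, 1558 and 1180.4 CPM in the 6m libraries and 1355, 1469.0, 1481 and 1654.5 CPM in the 24m libraries. The ages overlapped over most of their ranges. Its log2FC was 0.09 (SE 0.0947, 95% interval -0.10 to 0.29, edgeR padj = 0.531), an interval that lies within the fold minimum on either side.

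Calm3 (ENSMUSG00000019370, chr7:16649290-16658156, minus strand) had 1219, 1257, 1174 and 1208 CPM in the 6m libraries and 1834, 1789, 1853 and 1707 CPM in the 24m libraries. The ages were far apart for their spread, with the lowest aged library well above the highest young one. The mean was 1214 ± 34.2 CPM in young and 1796 ± 65.0 CPM in aged libraries (SD, n = 4 per age), with a log2FC of 0.56 (SE 0.0817, 95% interval 0.40 to 0.73, edgeR padj = 2.16e-05), or 1.48-fold. The interval holds the fold minimum of 0.58, and whether Calm3 counts as called turned on the scaling and the filter: its log2FC was 0.67 with library sizes alone, 0.75 with DESeq2 on quantile-normalized counts and 0.61 with more than 5 counts required in every library.

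By the adjusted p alone, Camk2a, Camk2b and Calm3 were higher, against 12.3% of all tested genes that were higher and 21.7% that differed in either direction. In the same 3 members every aged library exceeded every young one, as in 11.1% of all tested genes, while a separation of the ages in either direction was seen for 21.1%.

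**Figure D1:**
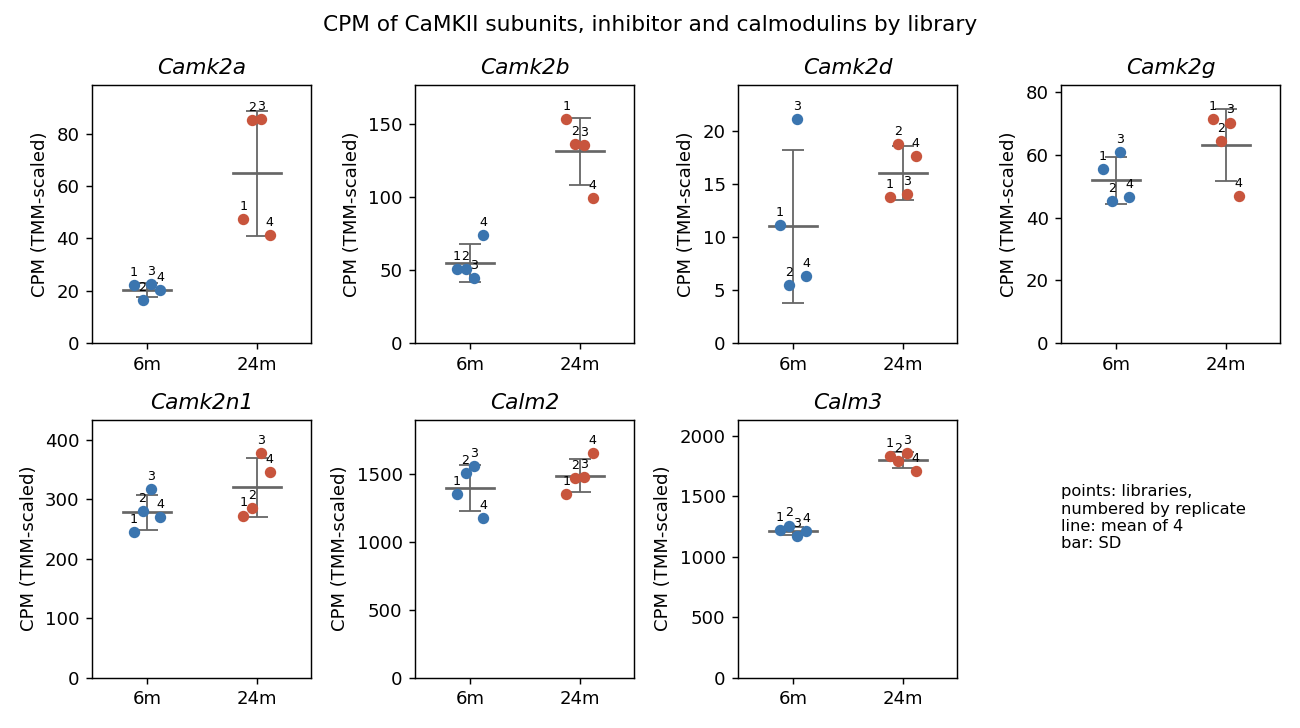
CPM of the 7 genes in each library (points numbered by replicate; blue, 6m; red, 24m), with the mean (line) and SD (bar) of the 4 libraries of an age; every vertical axis starts at 0 and has its own range. For Camk2a, Camk2b and Calm3 all aged libraries lie above all young ones, whereas the ages overlap for the other 4 genes.

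**Figure D2:**
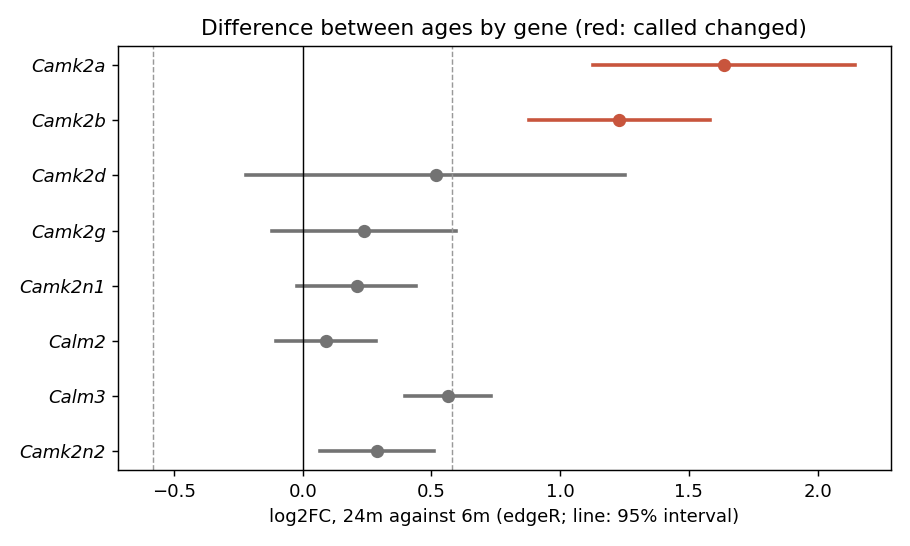
log2FC of the 7 genes, and of Camk2n2, between 24m and 6m from edgeR (points) with 95% intervals (lines); red genes were called, and dashed lines mark the fold minimum of 0.58. Camk2a at 1.64 and Camk2b at 1.23 lie beyond it with their whole intervals, while Calm3 at 0.56 lies just inside.

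Per kb of canonical transcript, the young adult levels were 1152 ± 140.0 CPM per kb for Calm2, 504 ± 14.2 for Calm3, 59.7 ± 6.45 for Camk2n1, 19.5 ± 4.61 for Camk2b, 14.1 ± 2.03 for Camk2g, 3.90 ± 0.546 for Camk2a and 1.49 ± 0.982 for Camk2d (SD, n = 4). Neighbours in this order were separated by more than the sum of their SDs except Camk2b and Camk2g. At 24m the order of the means was the same, with 1225 ± 102 CPM per kb for Calm2, 746 ± 27.02 for Calm3, 68.8 ± 10.7 for Camk2n1, 46.5 ± 8.06 for Camk2b, 17.1 ± 3.10 for Camk2g, 12.5 ± 4.60 for Camk2a and 2.18 ± 0.342 for Camk2d (SD, n = 4). There Camk2b stood apart from Camk2g, and Camk2g and Camk2a did not differ beyond their spread. With the Ykt6 reads taken away, Camk2b had 5.54 ± 3.27 CPM per kb at 6m, below Camk2g, and 28.1 ± 7.81 at 24m, above it (SD, n = 4), so the place of Camk2b in the order is not settled at 6m. These levels also depend on the annotated lengths and on the division itself. Whether counts of direct RNA reads grew with transcript length was not tested. Undivided, Camk2a had 64.9 and Camk2g 63.3 CPM at 24m, and Calm3 had 1796 and Calm2 1490 CPM. The order within both pairs at 24m thus turned on the division. The canonical transcript of Camk2b carries a 3′ untranslated region of 151 bases and is 2823 bases long, whereas that of Camk2a is 5187 bases long with 3375 bases of 3′ untranslated region.

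Ratios of members within a library do not depend on how libraries were scaled. They were computed as log2 ratios of counts plus 0.5 and compared between ages by a two-sided exact permutation test of the age labels, whose 35 distinct splits can give no p below 0.029. The ratio of Camk2a to Camk2g was 0.397 at 6m and 0.986 at 24m (difference 1.31 on the log2 scale, exact permutation test, p = 0.029, 0.057 after Benjamini-Hochberg adjustment over 10 ratios, n = 4 per age), without overlap between ages. That of Camk2b to Camk2g was 1.05 at 6m and 2.07 at 24m, again without overlap (difference 0.99, exact permutation test, p = 0.029, adjusted 0.057, n = 4 per age). For the alpha and beta subunits against the gamma subunit, every aged library thus had the higher ratio, although no ratio reached an adjusted p of 0.05 with the counts as deposited. After subtraction of the Ykt6 reads, the difference for Camk2b to Camk2g was 2.13, with an adjusted p of 0.048 (exact permutation test). Its exact p cannot be lower than the 0.029 it already had, so only the adjustment over 10 ratios changed. Against each other, Camk2a and Camk2b had a ratio of 0.380 at 6m and 0.476 at 24m, a difference within the spread between libraries (0.33, exact permutation test, p = 0.34, adjusted 0.38, n = 4 per age). With the Ykt6 reads taken away from Camk2b, this last difference turned to -0.82, so the order of the alpha and beta changes was not settled.

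Ratios with Camk2d were wide because of its low counts. The log2 ratio of Camk2a to Camk2d differed by 0.90 (exact permutation test, p = 0.11, adjusted 0.16), that of Camk2b to Camk2d by 0.57 (p = 0.40, adjusted 0.40) and that of Camk2d to Camk2g by 0.41 (p = 0.31, adjusted 0.38). All 3 overlapped between the ages. Of the calmodulin members, Calm3 was below Calm2 in reads at 6m, with a ratio of 0.872, and above it at 24m, with a ratio of 1.21 (difference 0.47, exact permutation test, p = 0.029, adjusted 0.057, n = 4 per age). The lowest aged library and the highest young library of this log2 ratio were close, at 0.04 and 0.03.

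Summed over the 4 subunits, the kinase had 113, 65, 120 and 117 reads at 6m and 188, 293, 239 and 268 reads at 24m. As CPM, the sum went from 138 ± 14.5 to 276 ± 47.5 (SD, n = 4 per age), with young libraries between 118 and 149 CPM and aged libraries between 206 and 306 CPM. The reads of Camk2n1 for each subunit read were 2.01 at 6m and 1.17 at 24m, without overlap between the ages. The reads of Calm2 and Calm3 together for each subunit read were 18.9 at 6m and 12 at 24m, and here 24m replicate 4 overlapped the young libraries. The log2 ratio of Camk2n1 to the summed subunits differed by -0.78 (exact permutation test, p = 0.029, adjusted 0.057, n = 4 per age). That of Calm2 plus Calm3 to the summed subunits differed by -0.65 (exact permutation test, p = 0.057, adjusted 0.095, n = 4 per age). The summed CPM were not tested.

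The make-up of the subunit reads was compared as well, and no share had an adjusted p below 0.057, with or without the Ykt6 reads. Camk2a held 14.6% ± 1.06 of them at 6m and 23.2% ± 5.79 at 24m, and Camk2g held 37.7% ± 4.16 at 6m and 23.0% ± 1.57 at 24m (SD, n = 4 per age). For both genes the ages did not overlap (exact permutation test, p = 0.029, adjusted 0.057 over 4 shares for each gene). Camk2b held 39.9% ± 8.79 at 6m and 47.8% ± 4.36 at 24m, and Camk2d 7.76% ± 4.59 and 6.03% ± 1.84, with overlap in both cases. The exact permutation test gave p = 0.2 for Camk2b (adjusted 0.27) and p = 0.69 for Camk2d (adjusted 0.69). In 24m replicate 1, Camk2a held 16.5%, close to the highest young library at 15.9%. With the Ykt6 reads taken away, Camk2b held 16.1% ± 9.10 at 6m and 35.2% ± 5.005 at 24m, without overlap, and Camk2g 52.8% ± 4.88 and 28.6% ± 2.81, again without overlap (SD, n = 4 per age). Camk2a then held 20.5% ± 0.859 and 28.6% ± 6.19, and its lowest aged library, at 20.5%, lay within the young range of 19.8% to 21.7%. These are shares of reads, without division by transcript length.

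**Figure D3:**
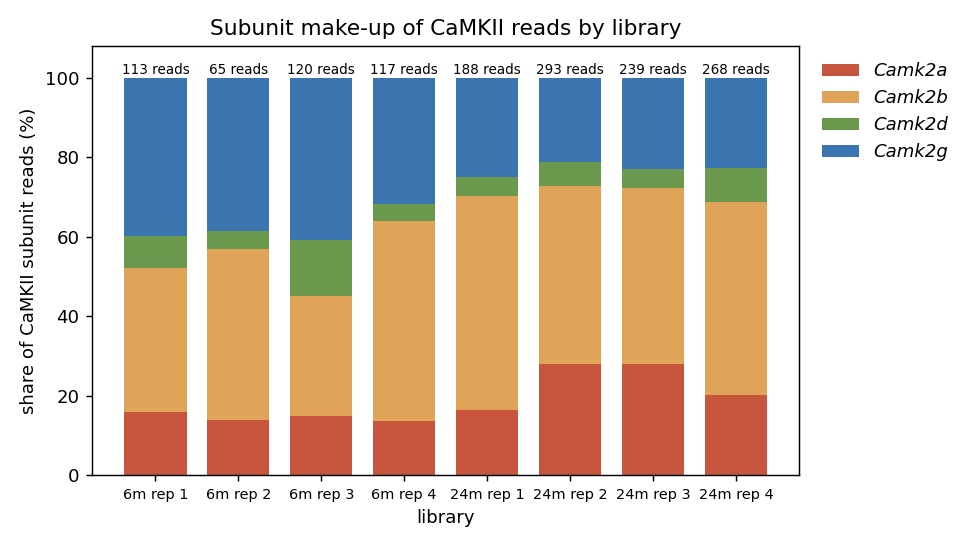
Share of CaMKII subunit reads (percent) held by Camk2a, Camk2b, Camk2d and Camk2g in each library, with the summed reads above each bar. The Camk2g share is between 31.6% and 40.8% in the young libraries and between 21.2% and 25.0% in the aged ones, and the Camk2a share is highest in 24m replicates 2 and 3.

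Several measures of the libraries moved with age beside these genes. Counts on genes added up to between 573152 and 843706 at 6m and between 660398 and 1255424 at 24m. The mean length of the canonical transcripts, weighted by counts, was between 2472 and 2508 bases at 6m, 2485 in 24m replicate 1 and between 2582 and 2627 in the other aged libraries. In 24m replicates 1 to 4, Camk2a had 47.3, 85.3, 85.7 and 41.4 CPM, and Camk2b 154, 136, 136 and 99.7 CPM. Mitochondrially encoded genes took between 8.67% and 10.9% of counts at 6m and between 6.48% and 8.94% at 24m. The part of these measures in the results was not tested.

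Some markers of the cells that make CaMKII also differed. The counts of called markers below stand beside 10.3% of all tested genes called higher and 4.17% called lower. The 6 pan-neuronal markers summed to between 1665 and 1792 CPM at 6m and between 2308 and 2663 at 24m, and 2 of the 6 were called higher, Snap25 and Thy1. The 8 markers of forebrain glutamatergic neurons summed to between 584 and 681 CPM at 6m and between 767 and 1098 at 24m. Of 7 tested markers, 2 were called higher, Slc17a7 and Tbr1, and the median log2FC was 0.10. The log2FC was above 0 for 5 of the 7 and below 0 for Mef2c (-0.98) and Fezf2 (-0.34), neither called. Slc17a7 alone made up most of the sum, with a mean of 536 of 640 CPM at 6m and 806 of 922 at 24m. Of the 6 markers of cerebellar granule cells, 3 were called higher (72.3 to 169 CPM at 6m and 220.1 to 267 at 24m). Markers of GABAergic interneurons overlapped between the ages (2089 to 2321 CPM and 1952 to 2251), as did those of striatal projection neurons (669.6 to 765 and 643 to 789.6). Among other cells, oligodendrocyte markers summed to between 2004 and 2574 CPM at 6m and between 2777 and 3638 at 24m (2 of 7 called higher), oligodendrocyte progenitor markers to 98.3 to 136 and 139 to 197 (0 of 3 called), microglia markers to 684 to 758 and 859.8 to 1091 (1 of 7 called higher), and astrocyte markers to 2362 to 2874 and 2365 to 3109.5 (3 of 6 called higher, 1 lower). All 5 blood markers were called lower (6090.3 to 10032 CPM at 6m and 3350.4 to 6283 at 24m), none of 3 endothelial markers was called (116 to 156 and 100.5 to 128), and none of 4 choroid plexus markers was called (3090.2 to 4607 and 2388 to 4611). Aldoc, not called, made up most of the astrocyte sum, with a mean of 2341 of 2638 CPM at 6m and 2148 of 2648.5 at 24m. The astrocyte markers called higher were Gfap, Slc1a3 and Gja1, and the one called lower was Slc1a2. Ttr made up most of the choroid plexus sum, with 3436 of 3827 CPM at 6m and 3201 of 3485 at 24m. No marker was at 0 in all libraries. The part of cell make-up in the results on Camk2a, Camk2b and Calm3 was not tested.

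Around the members, 90 other genes of calcium and calmodulin signalling were listed in 8 groups, and 80 were tested. Of these, 14 were called higher and 3 lower, which is 21.3% against the background of 14.5%. Their median log2FC was 0.22 against -0.003 over all tested genes. The lists were chosen with earlier results of these data known, so both comparisons are descriptions and no tests. With library sizes alone, which moved the median of all tested genes to 0.10, 23 of the 80 were called higher. For the counts per group below, the background was 10.3% of all tested genes called higher and 4.17% called lower.

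Among other calmodulin kinases and their regulators, 2 of 10 tested genes were called higher and none lower, with a median log2FC of 0.29. Camkk1, a kinase that activates other calmodulin kinases, rose from 18.8 ± 5.01 to 42.9 ± 5.20 CPM (SD, n = 4 per age; log2FC 1.21, edgeR padj = 0.000434). Camkv, a kinase-like protein of vesicles without catalytic activity, had a log2FC of 0.71 (edgeR padj = 0.000465). Of 13 genes of calmodulin and calmodulin-binding proteins, 1 was called higher, with a median of 0.10. It was Add1, an adducin of the membrane skeleton, with a log2FC of 0.67 (edgeR padj = 0.000494).

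The phosphatases that oppose the kinase held a few of the larger changes. In calcineurin, the phosphatase that calmodulin activates, 1 of 8 genes was called higher and the median log2FC was 0.31. The called gene was Ppp3r1, its regulatory subunit, which rose from 43.0 ± 4.25 to 100.4 ± 20.2 CPM (SD, n = 4 per age; log2FC 1.256, edgeR padj = 9.53e-06) and shares 13.6% of its exon bases with Dnaaf10 on the same strand. In phosphatases 1 and 2A, 2 of 9 were called higher, with a median of -0.03. Ppp1r9b, which codes for spinophilin and holds phosphatase 1 in dendritic spines, rose from 84.8 ± 28.3 to 225 ± 53.6 CPM (SD, n = 4 per age; log2FC 1.38, edgeR padj = 7.37e-06), and Ppp1cb, a catalytic subunit, had a log2FC of 0.96 (edgeR padj = 0.00261). Among calmodulin-dependent enzymes and pumps, 0 of 7 were called higher and 1 lower, with a median of -0.003. It was Pde1a, a calmodulin-activated phosphodiesterase, which fell from 25.1 ± 1.74 to 12.6 ± 4.48 CPM (SD, n = 4 per age; log2FC -1.01, edgeR padj = 0.0115).

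Postsynaptic substrates and partners of the kinase went in both directions, with 2 of 12 called higher, 1 lower and a median log2FC of 0.39. Arc, an activity-induced regulator of AMPA receptor traffic, and Shank3, a scaffold of the postsynaptic density, rose with log2FC of 1.21 (edgeR padj = 0.00184) and 1.14 (edgeR padj = 0.0319). Both rested on few reads, at most 11 in a young library for Arc and at most 7 for Shank3. Gria2, an AMPA receptor subunit, fell from 36.3 ± 15.9 to 15.5 ± 4.82 CPM (SD, n = 4 per age; log2FC -1.21, edgeR padj = 0.00372). On the presynaptic side 3 of 9 were called higher and 1 lower, with a median of 0.56. Stx1a, the syntaxin of vesicle fusion, and Syn2, a synapsin of vesicle membranes, had log2FC of 0.75 (edgeR padj = 0.00323) and 0.61 (edgeR padj = 0.000503), and Syn2 overlaps Timp4 on the opposite strand. Kcnma1, the large-conductance calcium-activated potassium channel, fell from 29.7 ± 6.15 to 11.7 ± 3.68 CPM (SD, n = 4 per age; log2FC -1.33, edgeR padj = 0.0014).

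Neuronal calcium sensors and buffers, which share calcium with calmodulin, had 3 of 12 genes called higher, none lower and a median log2FC of 0.13. Hpcal4, a sensor of the hippocalcin family, rose most, from 10.3 ± 4.76 to 58.6 ± 22.4 CPM (SD, n = 4 per age; log2FC 2.54, edgeR padj = 1.27e-06). Its young libraries lay between 4.98 and 16.3 CPM, with at most 9 reads each, and its aged libraries between 45.7 and 92.1 CPM. Ncs1, neuronal calcium sensor 1, had a log2FC of 1.16 (edgeR padj = 0.00772).

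**Figure D4:**
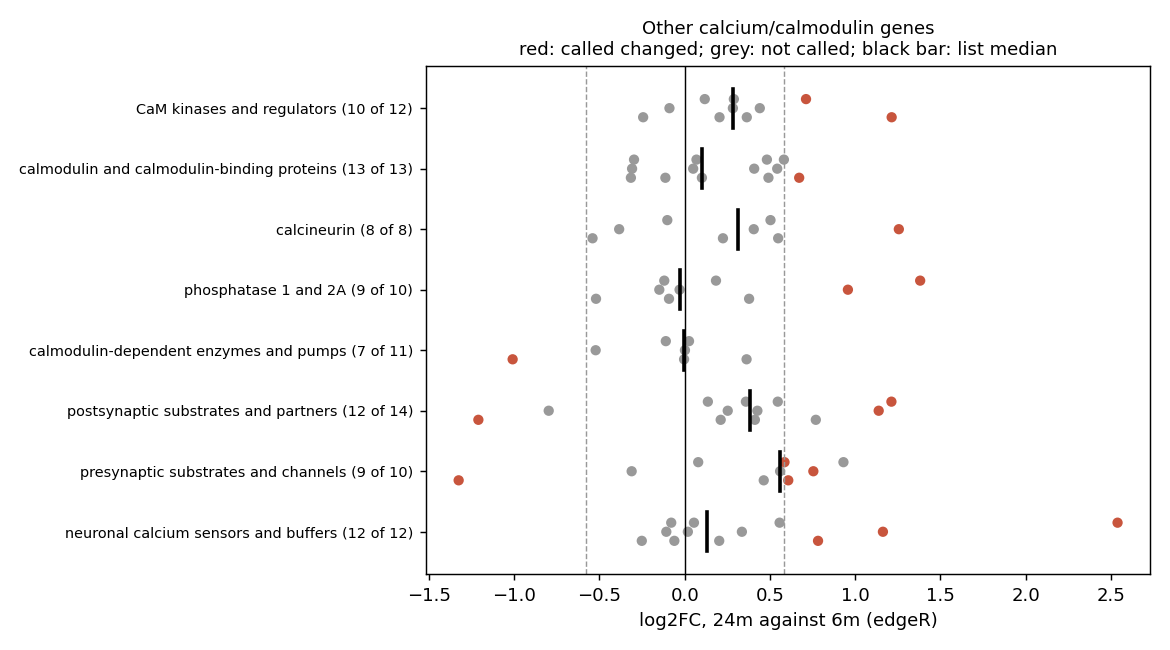
log2FC between 24m and 6m (edgeR) of the 80 tested genes in 8 groups around CaMKII, with the number tested of the number listed in brackets; each point is a gene, red where called, and black bars are group medians. Most points are grey, and the called genes lie on the right except for Pde1a, Gria2 and Kcnma1.

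The genes whose pattern over the 8 libraries was most like that of a member were found among genes with a mean count over 50, by the root mean square difference of log2 CPM after each gene was centred on its mean. For Camk2b these were Palm (0.137), Phyhip (0.137) and Scamp5 (0.155), against a median of 0.727 over 2719 genes. For Camk2n1 they were Nell2 (0.0701), Stard3nl (0.0828) and Sec14l1 (0.0893), against a median of 0.308. For Camk2a they were the gamma-protocadherins Pcdhgc3 (0.226), Pcdhga6 (0.229) and Pcdhgc5 (0.229), against a median of 0.904 over 2720 genes. The protocadherins share 2210 exon bases with each other on the same strand and had nearly equal counts, so they stand for 1 measurement, and which of them the reads came from is uncertain. These distances are descriptions over 8 libraries that share depth and age.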

How the data were processed

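The authors sequenced RNA from the brain hemispheres of 8 mice by ONT direct RNA sequencing on a MinION. They mapped reads to GRCm39 with minimap2 (version 2.24 in the submitters' processing notes) and assigned them to genes with featureCounts. These raw counts are what was deposited. The featureCounts version and its strand and overlap settings are not given in the sources used here. The labels name a poly(A) kit for cDNA, whereas the methods describe direct RNA, which was followed. What the authors did later, a filter on low counts, normalization by quantiles and by the median of each row, and DESeq2, is not part of the counts, and the median step was left out here. Each mouse gave 1 library, so replicates are separate animals.

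Symbols, positions, exons and lengths were taken from GENCODE vM39 of the same build for 22281 of 22430 genes, and 149 unmatched genes stayed in the fit. Sequences were read from the transcript sequences of GENCODE vM39. Near-identical copies of 33 genes were searched with BLAST+ 2.17.0, and only the partner of Camk2b on the other strand, Ykt6, was found.

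Ages were compared with edgeR 4.0.16 in R 4.3.3 (quasi-likelihood test, TMM, mean count over 5, no term but age). A called gene had padj of at most 0.05 and absolute log2FC of at least 0.58. Intervals are at 95 percent. log2 CPM for likeness used a prior count of 2, and ratios added 0.5 to counts. The statistical steps were tested on simulated data.

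Named genes were the 7 members, Camk2n2, up to 2 called genes with the highest and up to 2 with the lowest log2FC in each group of pathway genes, and the 3 genes most like Camk2a, Camk2b and Camk2n1. A gene that this rule also names is not reported here. Ykt6 and the marker genes named were picked with their values in view. The members and lists were chosen with earlier results of these data known.

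Alternatives were DESeq2 1.42.0 with raw or quantile-normalized counts, limma-voom (limma 3.58.1), scaling by RLE, by the upper quartile or by library sizes alone, leaving out mitochondrially encoded genes, 4 other filters, padj alone, a replicate block, each library left out in turn and, added after the data were seen, Camk2b less Ykt6.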

Additional observations from a re-analysis of the deposited data

Results flagged for a closer look

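Of 44 groups of 4 libraries examined for a library that stood apart (Dixon's test at its 95% limit), 2 held one, where chance gives about 2.2. The log2 ratio of Camk2b to Camk2g was 0.940 in 24m replicate 3 and between 1.07 and 1.10 in the other aged libraries, which lie close together. The log2 ratio of Calm2 plus Calm3 to the summed subunits was 4.03 in 24m replicate 4 and between 3.42 and 3.47 in the other aged libraries. That library also had the lowest Camk2a, Camk2b and Camk2g CPM and the highest total count of the aged libraries.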

How the results depend on the processing

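Camk2a and Camk2b were called higher under every alternative run, with log2FC of 1.47 to 1.87 for Camk2a (padj up to 0.00191) and, apart from the subtraction of Ykt6 (2.27), of 1.14 to 1.43 for Camk2b. Calm3, at 0.56 under the fold minimum, was called with limma-voom (0.76) and DESeq2 (0.75) after quantile normalization, library sizes alone (0.67), more than 5 counts in every library (0.61), filterByExpr (0.59) and padj alone (0.56). With single libraries left out it was between 0.55 and 0.61, called without 6m replicate 2 (0.59) and without 24m replicate 4 (0.61). Camk2d, Camk2g, Camk2n1 and Calm2 were not called under any alternative that tested them, and Camk2d could not be tested with more than 5 counts in every library. Under the fold minimum, Calm2 still passed the adjusted p after quantile normalization, with limma-voom (0.34, padj = 0.0139) and DESeq2 (0.31, padj = 0.0437). Camk2n1 did so in edgeR with library sizes alone (0.32, padj = 0.0475) and without 24m replicate 1 (0.28, padj = 0.0368). Of the other pathway genes, 14 were called higher, but 23 with library sizes alone and 25 by padj alone, and between 10 and 20 with single libraries left out. The count called lower was 3, but 5 with a total count over 5, 5 with no filter and 8 by padj alone, and between 3 and 5 with single libraries left out (5 without 6m replicate 4). The difference in the Camk2d share was -1.73 percentage points and lay between -2.89 and 0.41 with single libraries left out, reversed without 6m replicate 3 (0.411). After subtraction of Ykt6, the log2 differences in ratio were -0.82 for Camk2a to Camk2b, reversed, 2.13 for Camk2b to Camk2g, -0.95 for Camk2n1 to the summed subunits, -0.82 for Calm2 plus Calm3 to the summed subunits and 1.63 for Camk2a plus Camk2b to Camk2d plus Camk2g, and all of these but the first passed an adjusted p of 0.05, which no ratio did without the subtraction. Without the subtraction, the exact permutation p of these passing ratios, except that of Calm2 plus Calm3, was already at its floor of 0.029. For those at the floor, the adjusted p fell through the adjustment over 10 ratios alone. The cause of the differences was not tested. Over all genes, 1359 were called, against 834 with DESeq2 on raw counts and 824 with DESeq2 on quantile-normalized counts. Same-numbered libraries of both ages did not deviate together (correlation of deviations 0.065, -0.010, 0.005 and -0.160), so the numbers pair nothing. With a replicate block 1308 genes were called and the log2FC of Camk2a was 1.61, that of Camk2b 1.22 and that of Calm3 0.56, with no member's call changed. The libraries did not all correlate best with their own number, and paired tests of ratios cannot go below p = 0.125.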

Other observations

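Camk2a, known as an abundant mRNA of forebrain excitatory neurons, was covered by 61 reads in the 4 young libraries together and by 234 in the 4 aged ones, fewer than Camk2g with 156 reads at 6m and about level with its 225 reads at 24m. Camk2b had 164 and 468 reads. Per kb of canonical transcript, Camk2a was the lowest of the subunits except Camk2d at both ages. At 24m this rank turned on the division by length, because undivided Camk2a had 64.9 CPM and Camk2g 63.3 CPM. Calm3 was covered far more deeply, with 3590 reads at 6m and 6597 at 24m.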
